A study of Mus musculus with 6 samples.

Results

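The DNA replication machinery was examined in 3 samples of Pax7-GFP cells and 3 samples of undifferentiated mouse embryonic stem (ES) cells, each hybridised to 1 single-colour array of total RNA. The genes were given as a list of 47 symbols covering origin licensing, the helicase, the polymerases and nucleotide supply, and a row of the value table was taken when its annotated symbol was exactly one of them. Of the 47 listed genes, 46 had such a probe set, out of 22180 genes measured. They occupied 51 rows, because Fen1, Pole, Rpa1, Rpa3 and Rrm2 had more than 1 probe set. Rfc4 shared its probe set with Eif4a2 and is not reported. Pax7-GFP cells are GFP-positive cells that were isolated by flow cytometry from ES cultures differentiated for 3 weeks toward skeletal muscle, with the sorting gate set against an undifferentiated culture of the reporter line. ES cells are the undifferentiated, pluripotent cells. The labels name no strain, no number of reporter clones and no agents of the differentiation protocol, and they do not say whether the ES cells were sorted.

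Replication starts when the origin recognition complex marks a site on DNA and Cdc6 and Cdt1 load the Mcm helicase there, a step called licensing that precedes S phase. At S phase the Cdc7 kinase, Cdc45 and the GINS complex switch the helicase on, primase and the polymerases copy both strands, and the PCNA clamp holds the polymerases on DNA. ES cells divide rapidly with a short first gap and are known for abundant licensing factors, whereas muscle progenitors lengthen that gap and leave the cycle when they differentiate. E2F transcription factors, held in check by the Rb family, control many of these genes.

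Short recognition words of E2F factors were searched for in RefSeq promoter windows of build GRCm38.p6, which run from 250 bases before to 50 bases after each annotated start. The words were TTTCCCGC, TTTGGCGC, TTTCGCGC and TTTGCCGC on both strands, where overlapping matches were counted separately. The 160 bases before the start are shown for 7 genes, chosen to set members with large, moderate and no change side by side. All of them but Rrm1 hold an E2F word there, so they do not represent the members. Orc5, Mcm2, Dbf4, Mcm10 and Rfc5 also fell, hold no such word in their windows and are not shown. Cdt1 and Lig1, which fell and are not shown either, hold a word only after the start. Capitals mark the E2F words, and each sequence is given 5' to 3' in the direction of the gene. Orc1 (chr4:108579294-108579453, plus strand), Mcm5 (chr8:75109349-75109508, plus strand) and Cdc6 (chr11:98907991-98908150, plus strand) fell in Pax7-GFP cells. Mcm6 (chr1:128359706-128359865, minus strand) and Gins3 (chr8:95633399-95633558, plus strand) were lower by less than 2-fold. Orc3 (chr4:34614943-34615102, minus strand) and Rrm1 (chr7:102441535-102441694, plus strand) did not pass the test.
Orc1: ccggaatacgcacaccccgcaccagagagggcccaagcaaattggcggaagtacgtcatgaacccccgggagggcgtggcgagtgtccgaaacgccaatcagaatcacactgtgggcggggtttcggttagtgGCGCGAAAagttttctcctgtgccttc
Mcm5: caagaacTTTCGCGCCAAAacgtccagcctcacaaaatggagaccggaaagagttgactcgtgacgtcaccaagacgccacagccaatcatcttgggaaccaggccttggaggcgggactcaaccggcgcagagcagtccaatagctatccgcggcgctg
Cdc6: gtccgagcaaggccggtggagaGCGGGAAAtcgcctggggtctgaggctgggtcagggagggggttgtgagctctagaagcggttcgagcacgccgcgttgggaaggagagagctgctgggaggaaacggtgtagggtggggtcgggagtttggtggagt
Mcm6: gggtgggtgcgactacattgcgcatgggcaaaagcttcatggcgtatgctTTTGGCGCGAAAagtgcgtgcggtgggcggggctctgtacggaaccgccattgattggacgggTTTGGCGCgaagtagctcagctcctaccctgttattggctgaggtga
Gins3: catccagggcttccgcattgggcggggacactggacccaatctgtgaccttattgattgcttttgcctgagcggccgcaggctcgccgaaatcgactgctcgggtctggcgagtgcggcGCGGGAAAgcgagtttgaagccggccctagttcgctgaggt
Orc3: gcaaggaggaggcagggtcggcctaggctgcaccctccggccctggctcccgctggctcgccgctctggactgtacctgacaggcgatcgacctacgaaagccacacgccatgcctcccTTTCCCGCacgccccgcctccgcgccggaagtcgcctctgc
Rrm1: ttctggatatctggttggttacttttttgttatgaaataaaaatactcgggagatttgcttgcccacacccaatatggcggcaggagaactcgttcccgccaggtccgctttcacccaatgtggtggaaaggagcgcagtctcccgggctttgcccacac
In Mcm5, 2 words overlap in 1 run of capitals, and the same arrangement is found at 1 of the runs in Mcm6, which holds 3 words in all. Orc3 carries a word although its difference between the groups did not pass the test, and Rrm1 carries none in this stretch. Rrm1 does hold TTCCCGC there, 1 of the shorter words of 7 bases that were also searched for.

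The labels were checked against marker genes. Correlations across genes ran from 0.987 to 0.993 among Pax7-GFP arrays and from 0.9968 to 0.9970 among ES arrays, against 0.895 to 0.905 between groups. Pax7, the gene of the sorting reporter, stood at 10.90 ± 0.25 in Pax7-GFP cells and 5.70 ± 0.07 in ES cells (SD, n = 3 each, log2 signal). Nanog, a core pluripotency factor, stood at 5.13 ± 0.15 in Pax7-GFP cells and 12.02 ± 0.07 in ES cells (SD, n = 3 each). All 8 pluripotency markers were called lower, and all 6 progenitor and 7 of 7 differentiated muscle markers were called higher. Of 8 fibroblast markers, 5 were called higher, and their summed linear signal was 3726 to 5172 in Pax7-GFP arrays, against 1140 to 1581 in ES arrays. For the 7 differentiated muscle markers the sums were 6321 to 9384 in Pax7-GFP arrays and 428 to 496 in ES arrays. Neural markers had 1 of 7 called higher and 4 lower, with sums of 450 to 560 in Pax7-GFP arrays and 3502 to 3614 in ES arrays. Endothelial markers (1 of 5 higher, 1 lower) summed to 259 to 337 in Pax7-GFP and 491 to 522 in ES arrays, and haematopoietic markers (1 of 5 higher, 2 lower) to 588 to 851 in Pax7-GFP and 918 to 1072 in ES arrays. These markers move with every result below, no marker has a value of 0 on this scale, and their part in the results was not tested. Each array measured many cells together, so fewer cells with a transcript and less transcript per cell cannot be told apart.

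Most replication genes had lower signals in Pax7-GFP cells, usually by less than 2-fold. Of the 46 measured genes, 14 (30.4%) fell, called where limma gave an adjusted p below 0.05 with a difference of 2-fold or more, against 7.15% of all genes. None was called higher, against 7.34% of all genes, and 1 member was higher at an unadjusted p under 0.05, against 23.1% of all genes. By adjusted p alone, 39 of 46 were lower (84.8%, against 21.4% of all genes) and 1 was higher (2.17%, against 19.7% of all genes). Of these 40 genes, 35 passed under each of 14 alternatives, and Cdc7, Gins3, Prim2, Pcna and Rpa3 did not. The median log2 fold change, Pax7-GFP minus ES, was -0.83 over the 46 genes and 0.024 over all genes. The quartiles of the 46 were -1.13 and -0.54, and the extremes were Orc1 at -2.27 and Cdc7 at 0.31. All 3 Pax7-GFP arrays lay below all 3 ES arrays for 41 of the 46 genes (89.1%, against 25.6% of all genes). They lay above all ES arrays for 2 genes, Cdc7 and Rrm1 (4.35%, against 26.2%).

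The median log2 signal of the 46 genes was 8.81 to 8.97 in Pax7-GFP arrays, against 9.60 to 9.66 in ES arrays. Over all genes the median was 6.03 to 6.11 in Pax7-GFP arrays and 6.01 to 6.05 in ES arrays. No detection calls accompany the values, and levels of different probe sets are not compared with one another.

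**Figure D1:**
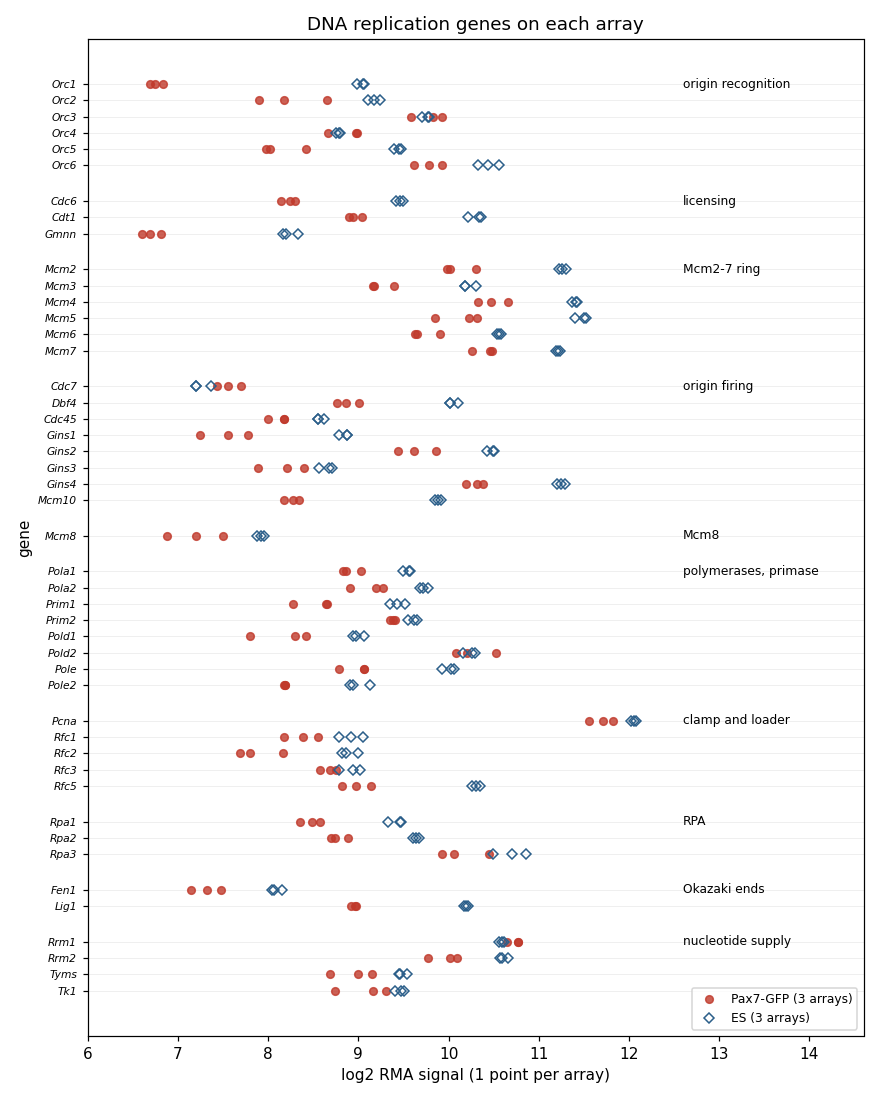
Log2 RMA signal (x axis) of each of the 46 genes (rows, grouped by role) on 3 Pax7-GFP arrays (filled red circles) and 3 ES arrays (open blue diamonds). In 41 rows every circle lies left of every diamond, most widely for Orc1, whereas circles and diamonds overlap for Orc3, Orc4 and Pold2.

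Of the 6 subunits of the origin recognition complex, 2 fell and 4 were not called. The counts by role, here and below, stand beside 7.15% of all genes called lower and 7.34% called higher. Orc1, the large ATPase subunit, had log2 signals of 6.75, 6.69 and 6.84 in Pax7-GFP cells, against 9.06, 8.99 and 9.05 in ES cells. The groups were far apart relative to their spread, and Orc1 fell by 2.27 (SE 0.080, limma adjusted p = 2.14e-07), a 4.83-fold difference and the largest among the members. Orc5, an ATP-binding subunit of the core complex, had 8.02, 7.98 and 8.42 in Pax7-GFP cells, against 9.48, 9.39 and 9.45 in ES cells. It fell by 1.30 (SE 0.12, limma adjusted p = 5.76e-05). Orc3, another core subunit, had 9.93, 9.58 and 9.83 in Pax7-GFP cells and 9.78, 9.77 and 9.71 in ES cells. Its groups overlapped, and the 95% interval of the difference ran from -0.21 to 0.27. Orc4 was similar, at 0.094 with an interval of -0.15 to 0.34. Orc2 and Orc6 were lower by adjusted p only, at -0.93 and -0.67. Orc2 was the least even of the members, its Pax7-GFP values having an SD of 0.38, and without Pax7-GFP replicate 3 it stood at -1.14 and was called.

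All 3 licensing regulators fell. Cdt1, which brings the helicase to origins, had 9.04, 8.90 and 8.94 in Pax7-GFP cells, against 10.21, 10.33 and 10.36 in ES cells. It fell by 1.34 (SE 0.085, limma adjusted p = 5.43e-06). Cdc6, the ATPase that works with Cdt1, had 8.24, 8.14 and 8.30 in Pax7-GFP cells, against 9.41, 9.46 and 9.49 in ES cells. It fell by 1.23 (SE 0.081, limma adjusted p = 6.91e-06). Gmnn encodes geminin, the protein that binds and blocks Cdt1 after origins have fired. It had 6.81, 6.69 and 6.60 in Pax7-GFP cells, against 8.33, 8.20 and 8.16 in ES cells, and fell by 1.53 (SE 0.091, limma adjusted p = 4.06e-06). For each of the 3 genes all Pax7-GFP arrays lay below all ES arrays, as they did for 25.6% of all genes.

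The 6 subunits of the Mcm2 to Mcm7 ring, the helicase that unwinds DNA at the fork, moved within a narrow band from -1.34 to -0.82. Mcm5 had 9.85, 10.23 and 10.31 in Pax7-GFP cells, against 11.40, 11.50 and 11.52 in ES cells, and fell by 1.34 (SE 0.13, limma adjusted p = 5.46e-05). Mcm2 had 9.98, 10.01 and 10.30 in Pax7-GFP cells, against 11.22, 11.26 and 11.30 in ES cells, and fell by 1.16 (SE 0.10, limma adjusted p = 4.01e-05). In both genes the ES arrays lay close together and the Pax7-GFP arrays were more spread. Mcm7, the subunit with the smallest change, had 10.26, 10.48 and 10.45 in Pax7-GFP cells, against 11.21, 11.24 and 11.20 in ES cells, a difference of -0.82 (SE 0.088, limma adjusted p = 0.000122). Mcm3, Mcm4 and Mcm6 stood at -0.98, -0.91 and -0.83, also lower by adjusted p but short of 2-fold. All 6 subunits passed the adjusted p, so the split between called and uncalled ones follows the 2-fold minimum. The 95% interval of Mcm5 (-1.63 to -1.05) overlaps that of Mcm3 (-1.20 to -0.76) but not that of Mcm7 (-1.02 to -0.62). Differences between subunits were not tested. Mcm3 and Mcm4 were called without Pax7-GFP replicate 3, at -1.06 and -1.001, and Mcm3 also with arrays centred on their medians, at -1.002. Mcm8, a related helicase of homologous recombination that is not part of this ring, had 7.50, 6.88 and 7.20 in Pax7-GFP cells, against 7.96, 7.92 and 7.87 in ES cells. It stood at -0.72 (SE 0.15, limma adjusted p = 0.00436).

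**Figure D2:**
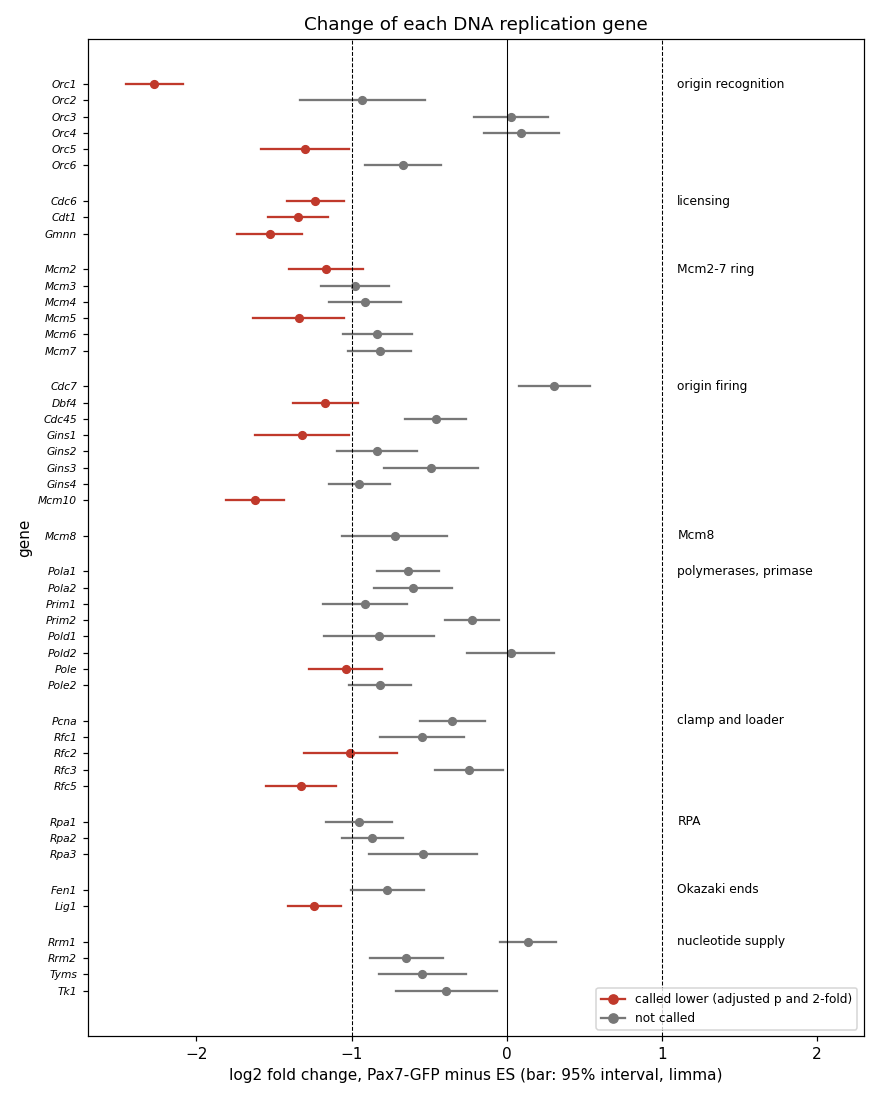
Log2 fold change, Pax7-GFP minus ES (x axis), of each of the 46 genes (rows, grouped by role), with its 95% limma interval as a bar. Red marks the 14 genes that fell, grey the 32 not called, and dashed lines the 2-fold minimum, which cuts through the Mcm2 to Mcm7 ring.

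Of the 8 genes that fire licensed origins, 3 fell and 5 were not called. Mcm10, which helps the loaded helicase begin unwinding, had 8.27, 8.17 and 8.34 in Pax7-GFP cells, against 9.91, 9.88 and 9.85 in ES cells. It fell by 1.62 (SE 0.082, limma adjusted p = 1.50e-06), second to Orc1. Gins1, a subunit of the GINS complex that joins the active helicase, had 7.24, 7.55 and 7.77 in Pax7-GFP cells, against 8.87, 8.87 and 8.79 in ES cells, and fell by 1.32 (SE 0.13, limma adjusted p = 7.74e-05). The other GINS subunits were lower by adjusted p only, with Gins4 at -0.95, Gins2 at -0.84 and Gins3 at -0.49, and Gins3 lost that pass without ES replicate 1 (limma adjusted p = 0.0626) or 2 (0.0693). Cdc45, the third component of the active helicase, stood at -0.46 (SE 0.085). Dbf4, the activating subunit of the Cdc7 kinase, had 9.01, 8.87 and 8.76 in Pax7-GFP cells, against 10.01, 10.11 and 10.02 in ES cells. It fell by 1.17 (SE 0.091, limma adjusted p = 1.89e-05). Cdc7 itself had 7.70, 7.43 and 7.56 in Pax7-GFP cells and 7.20, 7.37 and 7.20 in ES cells. Its 3 Pax7-GFP values lay just above the ES values, and the difference of 0.31 (SE 0.099, limma adjusted p = 0.0376) was the 1 positive value among the members to pass the adjusted p. Cdc7 kept that pass in 7 of 14 alternatives and lost it with arrays centred on their medians (limma adjusted p = 0.0757), with the trend and robust prior (0.0692), with a replicate block (0.0878), without Pax7-GFP replicate 1 (0.0778) or 3 (0.0758) and without ES replicate 1 (0.127) or 3 (0.128).

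Of the 8 polymerase and primase genes 1 fell, and 6 more were lower by adjusted p alone. Pole, the catalytic subunit of the leading-strand polymerase epsilon, had 9.06, 8.78 and 9.06 in Pax7-GFP cells, against 9.92, 10.06 and 10.03 in ES cells. It fell by 1.04 (SE 0.10, limma adjusted p = 6.91e-05), close to the 2-fold minimum. With quantile normalization it stood at -0.96, without Pax7-GFP replicate 2 at -0.95, and with the mean of its probe sets at -0.44, none of which is called. Its other probe set was dim in both groups, at 4.44 ± 0.13 in Pax7-GFP cells and 4.28 ± 0.16 in ES cells (SD, n = 3 each). The other 6 genes that differed were lower by adjusted p only. They were Prim1 (-0.91), the catalytic primase, Pold1 (-0.82), the catalytic subunit of polymerase delta, Pole2 (-0.81), Pola1 (-0.64), Pola2 (-0.60) and Prim2 (-0.22). Prim2 lost its pass in 10 of 14 alternatives, with adjusted p-values from limma of up to 0.154. Pold2, the accessory subunit of polymerase delta, had 10.52, 10.08 and 10.20 in Pax7-GFP cells and 10.16, 10.30 and 10.26 in ES cells. The groups overlapped, and the interval of the difference ran from -0.25 to 0.31.

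The sliding clamp was not called, whereas 2 of 4 measured loader subunits fell. Pcna, the clamp that tethers polymerases to DNA, had 11.56, 11.71 and 11.82 in Pax7-GFP cells, against 12.05, 12.07 and 12.02 in ES cells. The groups did not overlap, and the difference was -0.35 (SE 0.091, limma adjusted p = 0.0141), a pass lost without ES replicate 1 (0.0505) or 2 (0.0569). Rfc5, a small subunit of the clamp loader, had 8.82, 8.97 and 9.14 in Pax7-GFP cells, against 10.26, 10.30 and 10.34 in ES cells, and fell by 1.33 (SE 0.099, limma adjusted p = 1.47e-05). Rfc2, another small subunit, had 8.16, 7.68 and 7.80 in Pax7-GFP cells, against 8.82, 8.99 and 8.86 in ES cells. It fell by 1.01 (SE 0.13, limma adjusted p = 0.000340), at the edge of the 2-fold minimum, and it was not called with quantile normalization (-0.96) or without Pax7-GFP replicate 2 (-0.91), Pax7-GFP replicate 3 (-0.97) or ES replicate 2 (-0.96). Rfc1, the large subunit, stood at -0.55. Rfc3 had 8.57, 8.68 and 8.75 in Pax7-GFP cells and 8.94, 9.02 and 8.78 in ES cells, a difference of -0.24 that missed the adjusted p (limma adjusted p = 0.0741).

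Genes of single-strand binding and Okazaki fragment joining were lower throughout. RPA coats the single strands exposed at the fork. Rpa1, its large subunit, had 8.48, 8.35 and 8.57 in Pax7-GFP cells, against 9.32, 9.47 and 9.46 in ES cells, a difference of -0.95 (SE 0.092, limma adjusted p = 6.38e-05). Rpa2 stood at -0.86. Rpa3 had 10.45, 9.93 and 10.06 in Pax7-GFP cells, against 10.86, 10.70 and 10.49 in ES cells, a difference of -0.54 (SE 0.15, limma adjusted p = 0.0208). Rpa3 lost that pass without Pax7-GFP replicate 2 (0.061) or 3 (0.0645) and without ES replicate 1 (0.0847) or 2 (0.0694). The highest Pax7-GFP value of Rpa3 nearly reached its lowest ES value. Lig1, the ligase that seals Okazaki fragments, had 8.97, 8.92 and 8.97 in Pax7-GFP cells, against 10.17, 10.22 and 10.19 in ES cells. Its SDs were 0.027 in Pax7-GFP and 0.023 in ES arrays, and it fell by 1.24 (SE 0.074, limma adjusted p = 4.06e-06). Fen1, the nuclease that trims the fragment ends first, had 7.15, 7.32 and 7.48 in Pax7-GFP cells, against 8.04, 8.16 and 8.06 in ES cells, a difference of -0.77 (SE 0.10, limma adjusted p = 0.000388). The dimmer probe sets of Rpa1 and Fen1 stood at -0.068 and -0.13, with mean signals of 4.58 and 5.998 in Pax7-GFP cells and 4.65 and 6.12 in ES cells. The second probe set of Rpa3 had mean signals of 8.05 in Pax7-GFP cells and 8.37 in ES cells. It stood at -0.33 (limma adjusted p = 0.0225 with each probe set tested on its own).

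None of the 4 genes of nucleotide supply was called in either direction by limma. At an unadjusted p under 0.05, 3 of them were lower and 0 higher, against 23.9% and 23.1% of all genes. Rrm2, the small subunit of ribonucleotide reductase that is made in S phase, had 10.10, 9.77 and 10.01 in Pax7-GFP cells, against 10.56, 10.66 and 10.59 in ES cells. The difference was -0.65 (SE 0.10, limma adjusted p = 0.00106). The dimmer probe set of Rrm2 stood at -0.58, with mean signals of 4.64 in Pax7-GFP cells and 5.22 in ES cells. Rrm1, the large subunit, had 10.77, 10.64 and 10.77 in Pax7-GFP cells and 10.59, 10.61 and 10.55 in ES cells. The Pax7-GFP values lay slightly above the ES values, and the interval of the difference ran from -0.043 to 0.32. With quantile normalization Rrm1 was higher by adjusted p (limma, 0.0388). Tyms, which makes thymidylate, stood at -0.54 (SE 0.12, limma adjusted p = 0.00689). Tk1, the thymidine kinase of the salvage route, stood at -0.39 and missed the adjusted p (limma adjusted p = 0.0604), which it passed in 4 of 14 alternatives, without Pax7-GFP replicate 1 among them (0.0116), and its Pax7-GFP values had an SD of 0.30.

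Partners within a complex were compared through the log2 ratio of their signals on each array. None of the 7 pairs passed its test. The ratio of Dbf4 to Cdc7 was lower in Pax7-GFP cells by -1.47 on the log2 scale, with SDs of 0.12 in Pax7-GFP and 0.042 in ES arrays. For Pold1 to Pold2 the change was -0.85, for Rrm2 to Rrm1 -0.79 and for Prim1 to Prim2 -0.69. In these 4 pairs the change of the first gene lay between -1.17 and -0.65, and that of the second between -0.22 and 0.31. Pole to Pole2 (-0.22) and Gmnn to Cdt1 (-0.18) shifted far less. Pola1 to Pola2 shifted by -0.034 and its groups overlapped (exact two-sided permutation test, p = 0.8). The other 6 pairs each had p = 0.1 in the exact two-sided permutation test, the smallest that 3 arrays against 3 can give, and 0.117 after Benjamini-Hochberg adjustment over the 7 pairs.

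The Pax7-GFP arrays were less even than the ES arrays for these genes. The median SD of the 46 genes was 0.16 in Pax7-GFP arrays and 0.049 in ES arrays, against 0.14 and 0.084 over all genes. Pax7-GFP replicate 3 held the highest Pax7-GFP value for 23 of the 46 genes (50%, against 29.7% of all genes), replicate 1 for 20 (43.5%, against 33.8%) and replicate 2 for 3 (6.52%, against 36.5%). Replicate 3 was highest for 5 of the 6 ring subunits, which lay a median 0.17 above their Pax7-GFP mean there, and replicate 1 was highest for 6 of the 8 polymerase and primase genes. These arrays were sorted samples of 1 group, and the source of their differences was not tested.

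**Figure D3:**
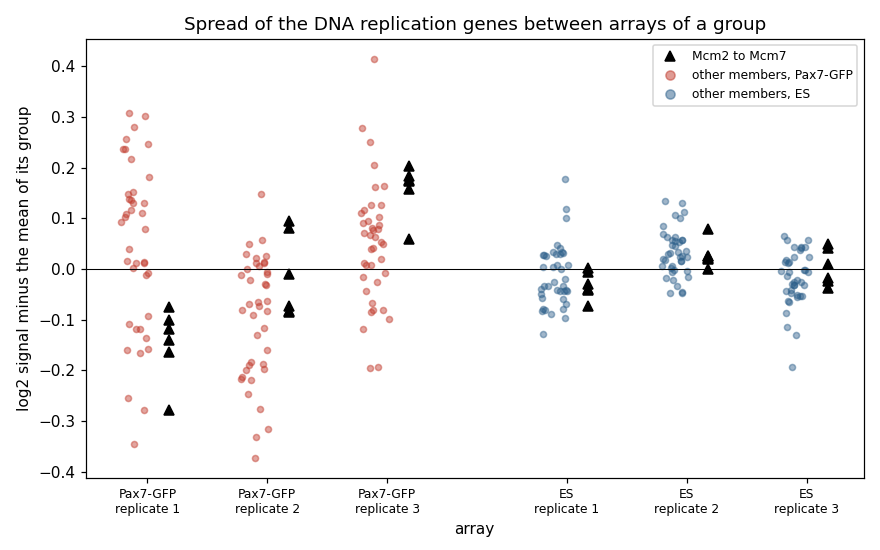
Log2 signal of each member minus the mean of its group (y axis) on each of the 6 arrays (x axis), with Mcm2 to Mcm7 as black triangles and the other members as circles, red for Pax7-GFP and blue for ES. The triangles lie below 0 on Pax7-GFP replicate 1 and above 0 on replicate 3, and the ES arrays are tighter.

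Genes outside the 46 were read in 12 further lists, which cover other factors of replication and also regulators of E2F activity, S-phase kinases and mitosis. Of 114 measured genes in these lists, 19 were called lower (16.7%, against 7.15% of all genes) and 8 higher (7.02%, against 7.34%), with a median of -0.33. Origin firing and fork protection had 3 of 13 lower and 0 higher. Ticrr, which helps load Cdc45 at origins, fell by 1.99 (SE 0.13) to 8.67 ± 0.25 in Pax7-GFP cells, against 10.66 ± 0.10 in ES cells (SD, n = 3 each). Rif1, a regulator of replication timing, fell by 1.91 (SE 0.087) to 9.42 ± 0.11 in Pax7-GFP cells, against 11.33 ± 0.03 in ES cells (SD, n = 3 each). In the lagging-strand list 2 of 6 were lower, Dna2, a flap-cutting nuclease, at -1.41 and Rnaseh2a, which removes RNA primers, at -1.22. Chromatin assembly behind the fork had 3 of 10 lower, led by the remodeller Hells at -1.87 and the histone chaperone Nasp at -1.33. In the nucleotide pool list 3 of 13 were lower, led by Umps, a pyrimidine synthesis enzyme, at -1.17 and Dut, which removes dUTP, at -1.14. The replication checkpoint had 3 of 11 lower, led by Etaa1, an activator of the Atr kinase, at -1.46 and the phosphatase Cdc25a at -1.09. The other called genes of these 5 lists, named after their values were seen, were Tipin (-1.25), Uhrf1 (-1.18), Shmt1 (-1.06) and Chek1 (-1.01). The medians of the 5 lists ran from -0.91 to -0.43.

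Other lists held genes that rose. Pclaf, a PCNA-binding factor, rose by 1.54 (SE 0.11) to 9.97 ± 0.16 in Pax7-GFP cells, against 8.43 ± 0.12 in ES cells (SD, n = 3 each). Pold4, the smallest subunit of polymerase delta, rose by 1.18 while Pole4, an accessory subunit of polymerase epsilon, fell by 1.14. In the list of licensing turnover Cul4b, a scaffold of the ligase family that destroys Cdt1, fell by 2.20 and was the 1 gene called of 7. By adjusted p alone 3 others were higher and 2 lower. Over all genes 19.7% were higher and 21.4% lower by adjusted p, called genes included. The higher ones were the related scaffold Cul4a at 0.78 (limma adjusted p = 0.000818), Skp2 at 0.68 and Cdkn1a at 0.57. The lower ones were Ddb1 at -0.54 and Kmt5a at -0.37. All of these were named after their values were seen. Of 8 translesion genes, Polh rose by 1.12 and Poli fell by 1.45. Among the 6 called genes, limma's adjusted p was smallest for Cul4b (7.57e-07) and greatest for Polh (0.00292).

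The regulators of E2F activity moved in both directions, with 4 of 17 higher and 2 lower, against 7.34% and 7.15% of all genes. Rb1, the retinoblastoma repressor, had 10.17, 9.87 and 10.24 in Pax7-GFP cells, against 7.82, 7.92 and 7.77 in ES cells. It rose by 2.26 (SE 0.11, limma adjusted p = 1.38e-06). Mybl2, a transcription factor of cycling cells, fell by 2.95 (SE 0.11, limma adjusted p = 2.65e-07). The remaining called genes, named after their values were seen, were E2f2 (1.95), E2f7 (1.56), Foxm1 (1.02) and E2f4 (-1.12). E2f1, E2f8 and Lin54, also named after their values were seen, stood at -0.13, -0.064 and -0.039.

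The lists of S-phase kinases and of mitosis were read in the same way. Of 5 S-phase cyclin and kinase genes, limma called 0 in either direction, against 14.5% of all genes, and their median was -0.096. At an unadjusted p under 0.05, 2 of the 5 were lower and 1 higher, against 23.9% and 23.1% of all genes. They were Ccne1 and Cdk2 (lower) and Ccna2 (higher), named after their values were seen. Of 14 mitosis genes 1 was called higher and 0 lower, against 7.34% and 7.15% of all genes, with a median of -0.049. By adjusted p without the fold minimum, 4 more were lower and 2 more higher. Over all genes 21.4% were lower and 19.7% higher by adjusted p, called genes included. Mki67, the Ki-67 proliferation antigen, had 11.48, 11.43 and 11.35 in Pax7-GFP cells, against 9.64, 9.81 and 9.82 in ES cells, and rose by 1.66 (SE 0.088, limma adjusted p = 1.98e-06). These medians stand beside -0.83 for the 46 replication genes. The difference between the lists was not tested.

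**Figure D4:**
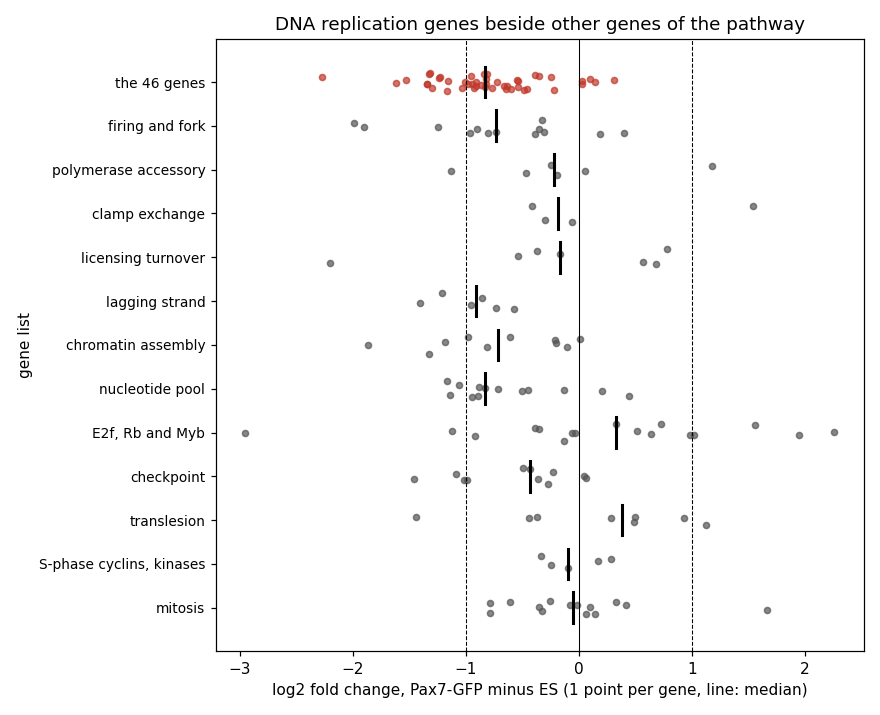
Log2 fold change, Pax7-GFP minus ES (x axis), of each gene (points) in the 46 replication genes (red, top row) and the 12 further lists (grey), with the list median as a black line and dashed lines at the 2-fold minimum. Medians lie at -0.83 for the replication genes, at -0.049 for mitosis and at 0.33 for the E2f, Rb and Myb list.

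Promoter windows were found for 38 of the 46 genes, in 47 windows, with up to 3 windows for a gene. The 8 genes without one were Gins1, Gins2, Gins4, Gmnn, Mcm4, Pole, Prim2 and Rfc2. At least 1 E2F word of 8 bases was found for 15 of the 38 genes (39.5%), against 3.26% of 16990 measured genes with a window and 2.60% of all 27025 genes with one. Over single windows of the same length, 2.26% of 32851 held a word. In 9 of the 15 genes a word lay wholly before the start, as in Orc1, Cdc6, Mcm5 and Mcm6 above, and in 6 genes words lay only after it. Among members with a word, 5 of 15 were called lower and the median log2 fold change was -0.82. Among members without one, 5 of 23 were called lower and the median was -0.65. The difference was not tested. The word CCAAT was found for 24 of the 38 genes (63.2%, against 41.6% of measured genes with a window), and CACGTG for 8 (21.1%, against 9.19%). TTTGAA or TTCGAA was found for 9 (23.7%, against 19.4%). A match is a run of letters and not a measured binding site.

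**Figure D5:**
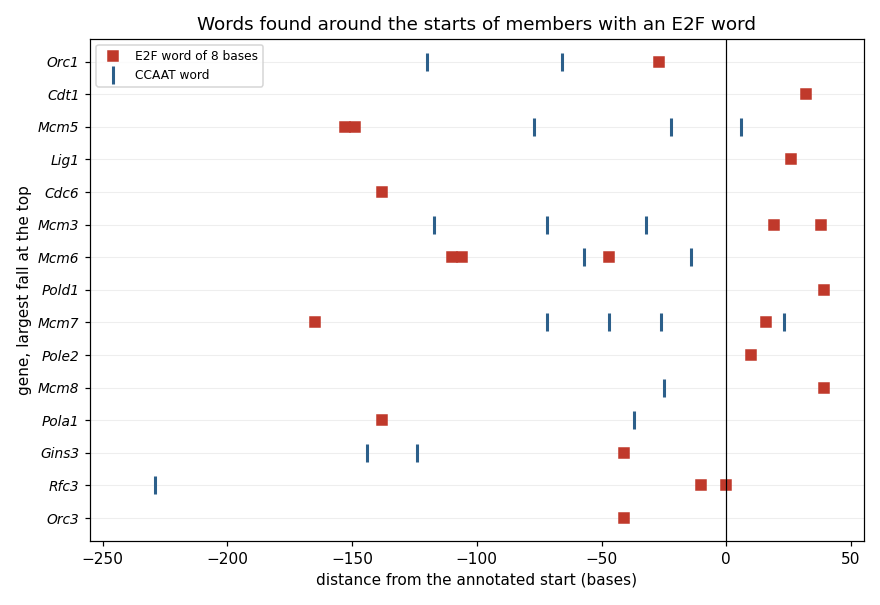
Positions of E2F words of 8 bases (red squares) and CCAAT words (blue bars) relative to the annotated start at 0 (x axis, bases) in the 15 members that hold an E2F word, ordered by change with the largest fall at the top (windows of a gene overlaid). Words lie on both sides of the start, and both the top row, Orc1, and the bottom row, Orc3, hold one.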

How the data were processed

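Per the submitters' processing notes, the authors made RMA signals in R 2.12.1. The deposited values are log2 signals, 1 per probe set and array, for 41345 rows. Per the labels' protocols, cRNA came from a double amplification. For the RMA options, the probe set definition and the array's genome build, nothing is given in the sources used here. Rows were named through the platform annotation of 2022. Of the probe sets naming 1 symbol alone, the brightest on average stood for its gene, giving 22180 genes. The groups were compared by moderated linear models (limma 3.58.1 under R 4.3.3, two-sided), with Benjamini-Hochberg adjustment over all genes. Calls needed an adjusted p below 0.05 and a log2 difference, Pax7-GFP minus ES, of 1 or more in size. Levels are mean ± SD, and the number of arrays limits the precision of every value. The sample titles call the replicates biological, but how replicate cultures were separated is not stated. The p-values therefore reflect only how far these samples spread, and how much of that spread is technical is not known.

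The members and lists were chosen with earlier results of these data known. By rule, all called members and the largest and smallest change of each role are given per array, and from each further list the 2 largest called changes plus the largest in the other direction. Simulated data for this comparison held 22180 genes. There limma recovered 94 of 100 at a simulated log2 change of 1.5 and 100 of 100 at 3, while it called 0 of the 21980 left as they were. Only rises of these sizes were simulated, so recovery of falls near the 2-fold minimum was not tested. Alternatives changed scaling, a signal floor, a dim-gene filter, the probe set rule, the prior on variances, the weighting of arrays, a block for replicate number, the fold threshold and the arrays included. Scanner files were not used here, so the background correction was kept as deposited.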

Additional observations from a re-analysis of the deposited data

How the results depend on the processing

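The count of 14 members called lower depended mainly on the fold threshold. Without a minimum fold 39 members were lower and 1 higher. Over all genes 4748 (21.4%) were then lower and 4378 (19.7%) higher, 9126 in all. In a limma test against a 2-fold difference (treat), 4 members passed, all of them lower (Orc1, Mcm10, Gmnn and Cdt1). Over all genes 1713 passed, counted in either direction. Under the alternatives that kept the threshold, 12 of the 14 called members stayed called in each, the exceptions being Pole and Rfc2, and 0 members were called higher. Leaving out single arrays gave 12 to 17 called members in 6 to 8 roles, a member median of -0.85 to -0.81, 25 to 30 called genes in the further lists and 3169 to 3309 called genes in all. Of the uncalled members, 4 (Orc2, Mcm3, Mcm4 and Rpa1) were called under at least 1 alternative, Rpa1 at -1.003 without Pax7-GFP replicate 3. The member median lay between -0.85 and -0.76 over 15 alternatives. Values near 0 changed sign. Pold2 stood at -0.018 with array weights, -0.10 without Pax7-GFP replicate 1 and -0.014 without ES replicate 1, within a range of -0.10 to 0.12 over single arrays left out. Orc3 stood at -0.044 without Pax7-GFP replicate 1, within a range of -0.044 to 0.13. The cause was not tested. Replicate numbers recur in both groups, and same-numbered arrays correlated at -0.11, -0.22 and 0.0069 in their deviations from the group means, so the numbers were not taken to pair samples. With a replicate block 14 members and 3213 genes were called, and the same members kept their 2-fold calls, whereas by adjusted p alone Cdc7 (0.0878) and Prim2 (0.116) no longer passed. Over 14 alternatives the members lower by adjusted p alone numbered 35 to 40 and those higher 0 to 2. E2F words of 7 bases were a choice made after seeing the data. With them, 63.2% of members with a promoter window held one, against 13.7% of measured genes. The medians with and without a word were then -0.79 and -0.80. A word of 7 bases was held by 5 of 10 members called lower (50%) and 19 of 28 not called (67.9%). For words of 8 bases the counts were 5 of 10 (50%) and 10 of 28 (35.7%).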
